A study of Homo sapiens with 6 samples.

Results

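The glutathione S-transferases were followed at the transcript level in HepG2 cells, an established human hepatocarcinoma line, carrying no engineered change (genotype WT in the labels). Cells received vehicle or 10 mM of added glycine for 24 h, and RNA was sequenced from 3 independent replicates of each group. The 10 genes, GSTA1, GSTA2, GSTA4, GSTK1, GSTM4, GSTO1, GSTZ1, MGST1, MGST2 and MGST3, were chosen by name as cytosolic, mitochondrial and microsomal family members, out of 57500 genes in the count tables. All 10 were found and all 10 passed the filter on low counts. The comparison addresses which of these transcripts differ after glycine, which is itself a building block of the cofactor that these enzymes use.

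Glutathione is a tripeptide of glutamate, cysteine and glycine. Glutathione S-transferases join its thiol to electrophilic compounds such as drugs, steroids and products of lipid peroxidation, and several also reduce peroxides or isomerise metabolites. The cytosolic enzymes are grouped into classes named alpha, mu, omega, zeta and others. The kappa enzyme is found in mitochondria and peroxisomes, and the microsomal enzymes are small integral membrane proteins of a separate family. Liver is rich in alpha-class enzymes, and conjugates made there are exported and then trimmed to mercapturates.

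Libraries held between 31795489 and 58815986 counts, and glycine replicate 2 was the deepest. The line carried the markers of its labelled origin: 8 of 8 hepatocyte markers were tested, with a summed level of 29082 to 33125 CPM (the counts-per-million scale, on TMM-scaled library sizes) with vehicle and 24935 to 28667 CPM with glycine. Of these, TTR (log2 change -0.32) and APOA1 (-0.26) were called lower, with edgeR adjusted p of 0.00921 and 0.0483. In all, 7 of the 8 had a negative change, with a median of -0.268, against 0.0035 over all tested genes. Groups did not overlap for 2 of the 8, against 31.6% of all tested genes, of which 6.54% were called lower. ALB (-0.49) and AFP (-0.33) had more negative estimates than TTR, but their groups overlapped and they were not called (edgeR adjusted p = 0.0764 and 0.308). Both varied widely between vehicle libraries (coefficient of variation 26.3% and 30.6%). APOA1 lost its call without vehicle replicate 1 or 3 or any glycine replicate (edgeR adjusted p up to 0.168). CD3E was at 0 counts in all libraries, and PTPRC was at 0 to 3 counts per library. The 3 leukocyte markers summed to 1.32 to 1.45 CPM with vehicle and 2.02 to 2.26 CPM with glycine. The 3 endothelial markers summed to 5.45 to 5.76 and 4.60 to 5.26 CPM, and the 3 fibroblast markers, mostly PDGFRB, to 27.0 to 30.8 and 21.1 to 21.9 CPM. Among them CD68 (log2 change 0.63) and COL1A1 (1.03) were called higher, and VWF (-1.18) and PDGFRB (-0.66) lower. What part these shifts had in the results below was not tested.

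GSTA2 and GSTA1, alpha-class genes of one cluster, were lower after glycine, and the other 8 members were not called. GSTA2 fell by 1.01 on the log2 scale, or -50.4%, and GSTA1 fell by 0.31 on the same scale (-19.5%). With the edgeR quasi-likelihood test adjusted over 15492 genes (threshold 0.05), 2 of 10 members were called lower. Among all tested genes 6.54% were called lower. No member was called higher, with 0 of 10 by edgeR, DESeq2 or limma-voom. By edgeR 6.71% of all tested genes were called higher, a share at which 0 of 10 is unremarkable. At an unadjusted p under 0.05 the members counted were GSTA1 and GSTA2 alone, 2 of 10, and 27.3% of all tested genes passed in either direction. The median log2 change was -0.06 over the 10 members and 0.0035 over all tested genes. As these are bulk samples, fewer cells carrying a transcript and less of it per cell cannot be told apart.

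Transcript levels can be compared between genes only per length, so levels were set on the TPM (transcripts-per-million) scale, computed from counts and summed exon length. GSTO1 was the most abundant member. This omega-class enzyme reduces dehydroascorbate and methylated arsenic species and removes glutathione from protein thiols. It reached 405, 432 and 436 TPM in the vehicle libraries and 402, 418 and 381 TPM in the glycine libraries, and made up 57.6% of the summed level of the 10 members with vehicle and 57.3% with glycine. MGST2 (80.1 ± 3.03 TPM, SD, n = 3, vehicle) and MGST1 (71.3 ± 1.404 TPM) followed, then GSTA1 (44.6 ± 2.30), GSTK1 (34.7 ± 2.03), GSTA4 (28.3 ± 1.11) and GSTM4 (26.4 ± 1.59). MGST3, GSTZ1 and GSTA2 were lowest, at 9.57 ± 0.822, 8.63 ± 0.632 and 8.62 ± 0.234 TPM.

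In this order, neighbours overlapped between vehicle libraries for GSTA4 and GSTM4, MGST3 and GSTZ1, and GSTZ1 and GSTA2, and the other neighbours were separate in all 3. With glycine, GSTZ1 (9.60 ± 0.124 TPM) stood above MGST3 (9.06 ± 0.547 TPM), and GSTA2 was left as the lowest at 4.32 ± 0.737 TPM. Summed over the 10 members, the level was 737 ± 20.3 TPM with vehicle and 699 ± 23.1 TPM with glycine (SD, n = 3), ranging from 715 to 756 and from 675 to 722 TPM, so the groups overlapped. The 6 cytosolic members took between 71.2% and 73.9% of that sum in each library and the 3 microsomal members between 21.7% and 23.7%. These levels depend on the exon length in the annotation, which ran from 1019 bases for GSTA1 to 8477 bases for GSTZ1. A gene whose transcripts are shorter than its summed exons is understated, so the shares and the order could differ with other lengths. MGST2 (3182 bases) stood above MGST1 (7440 bases) in TPM, but in CPM with vehicle MGST1 was higher (means of 152 against 73.2).

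**Figure D1:**
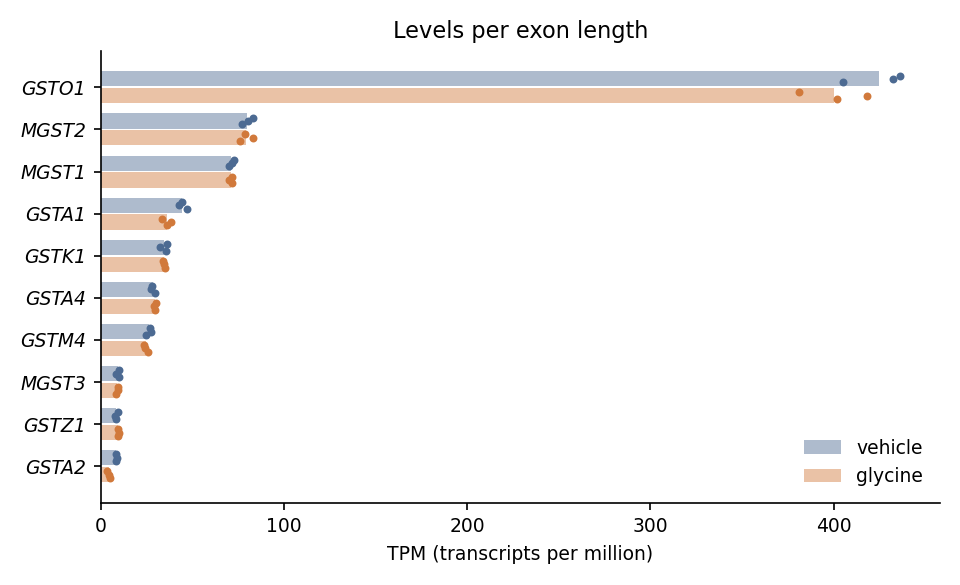
Level of each transferase transcript per exon length (horizontal axis, TPM, linear from 0), with bars at the mean of 3 libraries and points for each library, vehicle in blue and glycine in orange. GSTO1 stands near 400 TPM in both groups. GSTA2 is the lowest bar in each, though with vehicle it is almost level with GSTZ1 and their libraries overlap.

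GSTA1 encodes the main alpha-class transferase of hepatocytes, known for conjugating busulfan and for isomerising steroids, and GSTA2 encodes a close relative with peroxidase activity towards lipid hydroperoxides. Both lie on the minus strand of chromosome 6 in GRCh38, GSTA2 (ENSG00000244067) from 52750089 to 52763569 and GSTA1 (ENSG00000243955) from 52791664 to 52803910, with 28.1 kb between them. The reference sequences before their RefSeq transcription starts are nearly the same. The count annotation starts each gene farther upstream, inside the bases shown here, so part of each stretch lies within the gene as counted. Both stretches are shown because GSTA1 and GSTA2 are the members that were called lower, by unlike amounts. Whether these sequences bear on either change was not tested. The 250 bases before each RefSeq start (RefSeq, GRCh38.p14, chr6:52803817-52804066 for GSTA1 and chr6:52763476-52763725 for GSTA2, both minus strand) are given 5′ to 3′ with the bases that differ in capitals.
GSTA1: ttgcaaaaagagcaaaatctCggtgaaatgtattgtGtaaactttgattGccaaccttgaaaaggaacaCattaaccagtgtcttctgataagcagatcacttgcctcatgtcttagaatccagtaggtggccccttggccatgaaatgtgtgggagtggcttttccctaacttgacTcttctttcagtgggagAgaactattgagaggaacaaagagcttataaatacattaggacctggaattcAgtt
GSTA2: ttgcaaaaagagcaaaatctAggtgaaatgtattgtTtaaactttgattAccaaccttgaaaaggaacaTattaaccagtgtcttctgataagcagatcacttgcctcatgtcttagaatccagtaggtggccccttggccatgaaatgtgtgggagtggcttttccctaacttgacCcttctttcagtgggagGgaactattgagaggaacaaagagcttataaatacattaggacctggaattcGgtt

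The pair differed at 7 of 250 positions (97.2% identical). Their base composition set them apart from most of the other members: GC content was 40.8% for GSTA1 and 40.4% for GSTA2, against 50.4% for GSTA4 and a median of 58% over 35116 promoter windows. Lower still was 1 of the 3 MGST1 windows, at 37.6%. Windows were found for 9 of the 10 members, 11 in all since MGST1 has 3 annotated starts. The letters were searched on both strands for short motifs chosen after the values were seen. Each of the pair held a TATA box (TATAAA) beginning 30 bases before the start, which 10.7% of all windows hold on either strand at any position. The same letters were in the GSTO1 window and in 1 of the 3 MGST1 windows, farther from the start. The antioxidant response element core TGACNNNGC, in 10.9% of all windows, was not found in these letters in either, and it matched 1 time in the GSTA4 window and 2 times in that of GSTO1. These are matches of letters only.

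GSTA2 was counted at 3.08, 3.44 and 3.23 CPM in the vehicle libraries and at 1.82, 1.74 and 1.28 CPM in the glycine libraries. Every glycine library lay below every vehicle library. Its log2 change was -1.01 ± 0.161 (s.e., n = 3 per group, edgeR adjusted p = 0.00112), with a 95% interval from -1.36 to -0.66. It was a low transcript, with 108, 120 and 116 counts with vehicle and 58, 102 and 54 with glycine. The call held in each of the 6 fits that left out a library (edgeR adjusted p from 0.00178 to 0.00561) and against a 1.2-fold change (0.00553).

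GSTA1 was counted at 13.3, 12.8 and 13.05 CPM with vehicle and at 10.3, 11.6 and 9.48 CPM with glycine. The groups did not overlap, and the spread was wider with glycine (coefficient of variation 10.1%) than with vehicle (2.09%). The log2 change was -0.31 ± 0.0912 (s.e., edgeR adjusted p = 0.0385), with a 95% interval from -0.51 to -0.12. This call was near the threshold: it was lost without any of the 3 vehicle replicates, without glycine replicate 1 or without glycine replicate 3, with edgeR adjusted p from 0.0556 to 0.138. The log2 change stayed between -0.40 and -0.25 across the 6 fits that left out a library.

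Close paralogs share sequence, and reads in shared stretches could be split between genes or dropped. Of the distinct stretches of 100 bases in GENCODE transcripts of GSTA1, 9.85% were also in another gene's transcripts, all of them in GSTA2, and at 50 bases 26.2% were shared. For GSTA2 these shares were 9.06% and 18.4%. With 11 alpha-class genes and pseudogenes other than GSTA4 summed into 1 feature, the sum went from 16.6, 16.8 and 16.7 CPM with vehicle to 12.5, 13.6 and 11.0 CPM with glycine. The log2 change of the sum was -0.43 ± 0.0883 (s.e., edgeR adjusted p = 0.00626).

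Whether the 2 genes moved by the same factor was read from their ratio within each library. The ratio was not planned and was formed after both genes had been seen to be lower. In such a comparison 3 against 3 libraries cannot reach p under 0.05. The ratio of GSTA2 to GSTA1 counts, which does not depend on library scaling, was 0.232, 0.270 and 0.247 with vehicle and 0.176, 0.151 and 0.135 with glycine, without overlap. The mean of the log2 ratio was lower by 0.70 with glycine (log2 difference -0.70, two-sided exact permutation p = 0.1). That value is the smallest p that 20 arrangements of 3 against 3 libraries can give. The difference ran from -0.80 to -0.61 when each library was left out.

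GSTA4, the alpha-class enzyme that is efficient towards hydroxynonenal from lipid peroxidation, lies in the same gene cluster (chromosome 6, 52977948 to 52995378, minus strand), 174 kb beyond GSTA1. It was at 17.8, 17.5 and 17.7 CPM with vehicle and at 18.0, 18.8 and 18.1 CPM with glycine. The glycine libraries were all slightly above the vehicle libraries, but the log2 change was 0.05 ± 0.0705 (s.e., edgeR adjusted p = 0.674) and its 95% interval ran from -0.10 to 0.21. GSTA4 transcripts shared no stretch of 50 bases with another gene (0%). The ratio of GSTA1 to GSTA4 counts was 0.738 ± 0.00926 with vehicle and 0.570 ± 0.0462 with glycine, and that of GSTA2 to GSTA4 was 0.184 ± 0.0117 and 0.0880 ± 0.0158 (SD, n = 3). Neither ratio overlapped between groups, which followed from the separate CPM of these genes already given, so neither adds evidence of its own. Each had a two-sided exact permutation p of 0.1, again the smallest possible. These 3 ratios, none of them planned, were all that were tested, and their Benjamini-Hochberg adjusted p was also 0.1. Over the 10 members, 3 had groups that did not overlap, and over all tested genes this share was 31.6%.

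**Figure D2:**
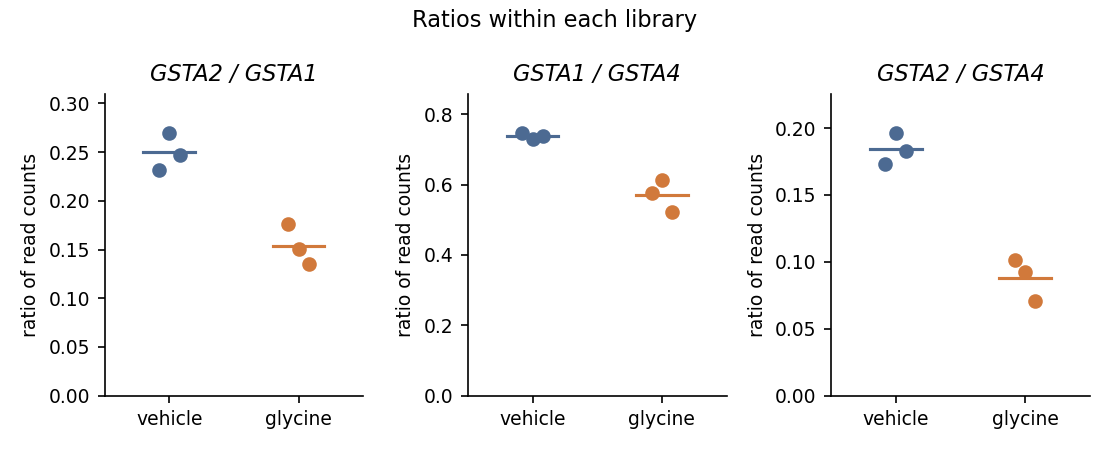
Ratio of read counts between alpha-class genes in each library (vertical axes, linear from 0), with a point per library and a line at the mean of 3. In each panel the glycine libraries sit below all vehicle libraries, with means of 0.154 against 0.250 for GSTA2 to GSTA1.

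The other 2 alpha-class coding genes of the cluster were at or near 0. GSTA3 had 0 counts in all 6 libraries and GSTA5 had 1 count in all, so a difference was not detectable at this depth. A count of 0 allows up to 3 counts, or between 0.0510 and 0.0944 CPM per library, for counting error only.

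GSTM4, a mu-class enzyme (ENSG00000168765, chromosome 1, 109656081 to 109674836, plus strand), was at 37.3, 44.3 and 42.8 CPM with vehicle and at 39.5, 39.3 and 35.6 CPM with glycine. The groups overlapped, and the log2 change was -0.12 ± 0.0779 (s.e., edgeR adjusted p = 0.351). Of its stretches of 100 bases, 6.51% were shared with other genes, most often GSTM2, and the exons of GSTM2 cover 1.65% of its exon length. All 9 mu-class genes and pseudogenes summed differed by -0.16 ± 0.0663 in log2 (s.e., edgeR adjusted p = 0.132).

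GSTO1 (ENSG00000148834, chromosome 10, 104235356 to 104267459, plus strand) was at 190, 215 and 213 CPM with vehicle and at 189, 210 and 179 CPM with glycine, and the log2 difference was -0.10 ± 0.0756 (s.e., edgeR adjusted p = 0.451). GSTZ1 (ENSG00000100577, chromosome 14, 77320884 to 77331597, plus strand), the maleylacetoacetate isomerase of tyrosine breakdown, was at 20.0, 20.2 and 22.8 CPM with vehicle and at 22.5, 24.5 and 22.4 CPM with glycine. Its log2 change of 0.14 ± 0.0782 was the highest of the 10 members and was not called (s.e., edgeR adjusted p = 0.264). Both genes overlapped between groups.

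GSTK1 encodes the kappa enzyme of mitochondria and peroxisomes (ENSG00000197448, chromosome 7, 143244093 to 143270854, plus strand). It was at 41.6, 40.4 and 44.2 CPM with vehicle and at 41.6, 43.5 and 40.1 CPM with glycine. These ranges almost coincide, and the log2 difference was -0.01 ± 0.0665 (s.e., edgeR adjusted p = 0.939), which turned to 0.0026 with total count scaling.

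**Figure D3:**
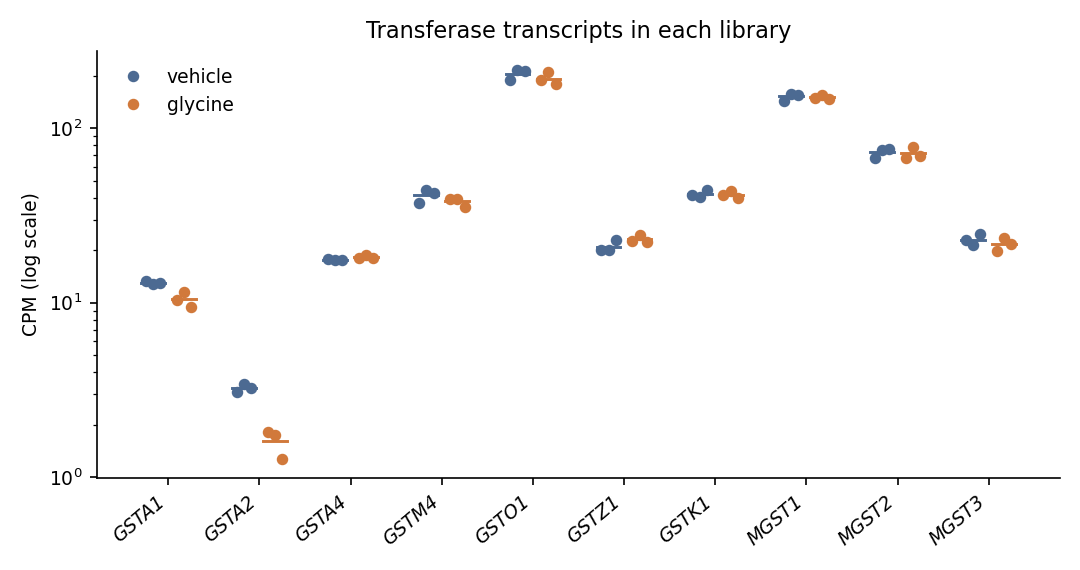
Level in CPM of the 10 transferase transcripts in each library (vertical axis, log scale, TMM-scaled library sizes), with a point per library and a line at the mean of 3. The groups separate clearly for GSTA1 and GSTA2, narrowly for GSTA4, and overlap for the other 7 genes.

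The 3 microsomal members also overlapped between groups. MGST1 (ENSG00000008394, chromosome 12, 16347142 to 16609259, plus strand), a peroxidase and transferase of the endoplasmic reticulum and outer mitochondrial membrane, was at 144, 157 and 156 CPM with vehicle and at 149, 155 and 148 CPM with glycine, and the log2 difference was -0.02 ± 0.0620 (s.e., edgeR adjusted p = 0.900). MGST2 (ENSG00000085871, chromosome 4, 139665768 to 139740745, plus strand), which can also make leukotriene C4, was at 68.0, 75.2 and 76.4 CPM and at 67.2, 78.5 and 69.7 CPM. Its log2 change was -0.03 ± 0.0744 (s.e., edgeR adjusted p = 0.865), and MAML3 on the other strand covers 7.92% of its exon length. MGST3 (ENSG00000143198, chromosome 1, 165630861 to 165661796, plus strand), a related membrane peroxidase, was at 22.95, 21.4 and 24.8 CPM and at 19.7, 23.4 and 21.8 CPM. Its log2 change was -0.08 ± 0.0837 (s.e., edgeR adjusted p = 0.562).

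Across the 8 members that were not called, the 95% intervals of the change ran from -18.2% for GSTM4 to 24.1% for GSTZ1. A change of the size seen for GSTA2 (-50.4%) lay outside all 8 intervals. A change of the size seen for GSTA1 (-19.5%) also lay outside them, though the lower bound for GSTM4 came close.

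**Figure D4:**
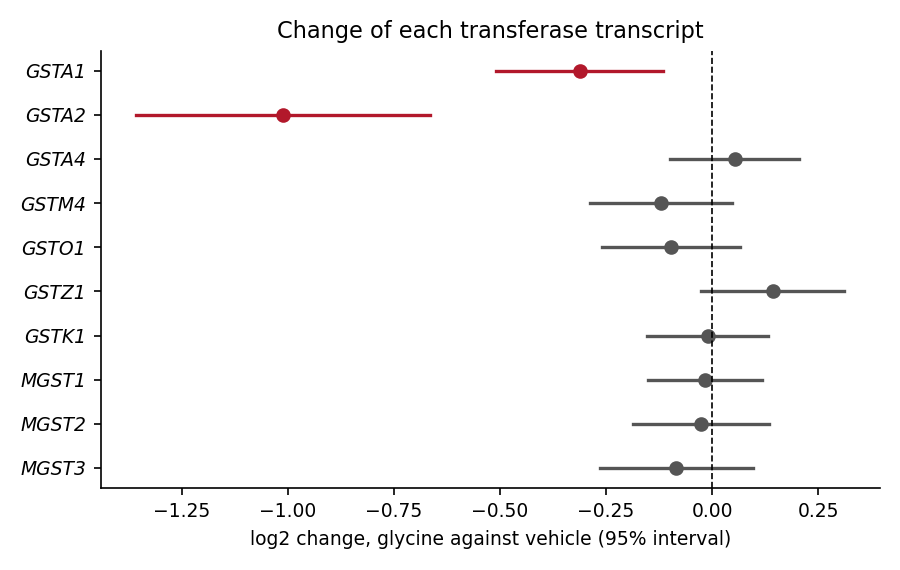
Log2 change of each transferase transcript with glycine against vehicle (horizontal axis, negative is lower with glycine), with the edgeR estimate as a point and its 95% interval as a line. Members called lower are in red and the others in grey. GSTA2 at -1.01 and GSTA1 at -0.31 lie left of 0, and the intervals of the other 8 members include 0.

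Other transferase genes and their relatives were listed as well. Of 19 symbols, 18 were in the tables and 7 were tested, and 1 of the 7 was called, against 13.3% of all tested genes. The called gene was ALOX5AP, a membrane relative of the microsomal transferases that presents arachidonate to its lipoxygenase, whose mean rose from 0.576 ± 0.0873 to 1.06 ± 0.202 CPM (SD, n = 3 per group). The log2 change, 0.88 ± 0.245 (s.e., edgeR adjusted p = 0.0310), rests on 203 counts in all. It lost its call without vehicle replicate 1 or 3 and without glycine replicate 1 or 2 (edgeR adjusted p up to 0.138), and with DESeq2 (0.0688).

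GSTM3, a mu-class enzyme, had means of 48.7 ± 2.32 and 42.2 ± 1.72 CPM without and with glycine, with no overlap, and its log2 change of -0.21 missed the threshold (edgeR adjusted p = 0.0564). PTGES2, a prostaglandin E synthase, had means of 117 ± 6.45 and 136 ± 7.89 CPM and a log2 change of 0.22 (edgeR adjusted p = 0.0510, DESeq2 0.0488). The log2 changes of GSTM2, GSTO2, GSTCD and the pseudogene GSTA7P were -0.08, 0.13, -0.03 and -0.65, with edgeR adjusted p of 0.379 or more. The other 11 genes were too low to test. They include GSTP1, the pi-class enzyme, at 0 to 4 counts per library, and GSTM1, at 1 to 5 counts per library, with 22.3% of its exon length covered by other genes on its strand.

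The supply of glutathione and the handling of its conjugates were read from lists compiled from general knowledge. Of 12 supply genes, 11 were tested and 2 were called, both lower. GSR, which reduces oxidised glutathione, went from 238 ± 11.4 to 181 ± 8.42 CPM (log2 change -0.40 ± 0.0651, s.e., edgeR adjusted p = 0.00144). GCLC, the catalytic subunit of the first enzyme of glutathione synthesis, went from 94.4 ± 4.68 to 81.2 ± 0.210 CPM (-0.22 ± 0.0613, edgeR adjusted p = 0.0325). The GCLC call was lost without vehicle replicate 1 or 2 or any glycine replicate (edgeR adjusted p up to 0.0939). The other 9 tested genes were not called.

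Of 23 genes for export and mercapturate formation, 20 were tested, and 3 were called higher and 1 lower. GGT5, which cleaves the glutamyl bond of glutathione conjugates such as leukotriene C4, had the largest change of all tested genes in these lists. Its mean rose from 4.86 ± 0.578 to 12.3 ± 1.27 CPM. The log2 change was 1.34 ± 0.114 (s.e., edgeR adjusted p = 6.35e-06), and it stayed called in all 6 fits that left out a library. KYAT1, a cysteine conjugate lyase, rose from 3.64 ± 0.256 to 5.25 ± 0.460 CPM (0.53 ± 0.120, edgeR adjusted p = 0.0106), and was not called without glycine replicate 3 (0.0573). ACY3, which deacetylates mercapturates, fell from 4.63 ± 0.448 to 3.34 ± 0.112 CPM (-0.47 ± 0.122, edgeR adjusted p = 0.0222), and ACY1, another aminoacylase, was at 21.9 ± 0.452 and 25.5 ± 0.903 CPM (0.22 ± 0.0681, edgeR adjusted p = 0.0483). ACY3 was lost without vehicle replicate 2 or 3 or glycine replicate 2 or 3 (edgeR adjusted p up to 0.0697), and ACY1 in all 6 such fits (0.0643 to 0.156) and with DESeq2 (0.0808). The other 16 tested genes, among them the conjugate pumps ABCC1 (log2 change 0.13) and ABCC2 (-0.13), were not called.

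Of 15 transcription factors and partners known to act on transferase genes, all were tested and 3 were called. NFE2L2, the oxidative stress factor NRF2, went from 227 ± 7.34 to 176 ± 11.9 CPM (log2 change -0.37 ± 0.0667, s.e., edgeR adjusted p = 0.00271). RXRA, a nuclear receptor partner, went from 159 ± 8.87 to 132 ± 6.27 CPM (-0.28 ± 0.0659, edgeR adjusted p = 0.0148), and lost its call without glycine replicate 3 (0.0691). AHR, the aryl hydrocarbon receptor, rose from 24.3 ± 2.52 to 36.3 ± 4.60 CPM (0.58 ± 0.0980, edgeR adjusted p = 0.00171). HNF4A, a liver nuclear receptor, was not called (log2 change -0.20, edgeR adjusted p = 0.109). Whether any of these transcripts bears on GSTA1 or GSTA2 was not tested. The shares called were 18.2% of the supply genes and 20% of the export and mercapturate genes and of the regulators, against 13.3% of all tested genes. Earlier results of these data were known when the lists were chosen, and few genes were called, so these shares do not set the lists apart. The median log2 changes of these lists were -0.05, 0.03 and -0.06.

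**Figure D5:**
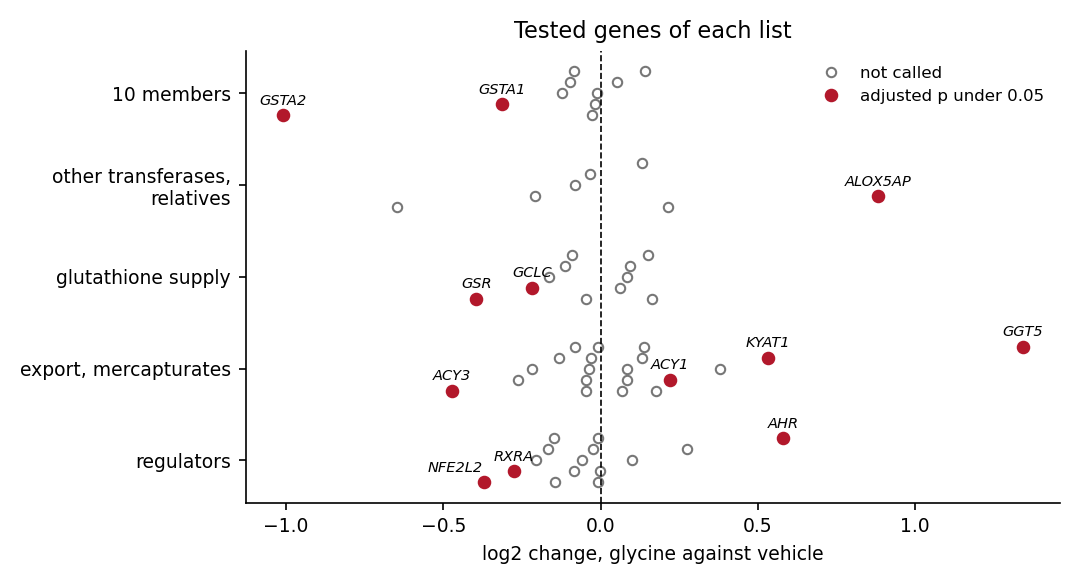
Log2 change with glycine against vehicle (horizontal axis) of every tested gene in 5 lists (rows), with filled red points for genes at an edgeR adjusted p under 0.05 and open grey points for the others; vertical position within a row has no meaning. GSTA2 is the leftmost point at -1.01 and GGT5 the rightmost at 1.34, and most points of each row lie between -0.3 and 0.3.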

How the data were processed

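RNA of HepG2 cells was sequenced in 6 libraries, grouped and numbered from their labels. The deposited files hold raw whole-number counts of reads per Ensembl gene. The submitters' processing notes name Trimmomatic 0.36, STAR 2.5.2b, featureCounts (Subread 1.5.2) and GRCh38, and strand and multi-mapping settings are not given in the sources used here, so reads of paralogs and of genes on opposite strands may be misassigned. Coordinates are those of the files. Symbols were taken from a table of gene IDs, and shared stretches from GENCODE release 29 transcripts.

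Genes were filtered with the edgeR 4.0.16 defaults (minimum count 10, minimum total 15), scaled by TMM (trimmed mean of M values) and tested with its two-sided quasi-likelihood test in R 4.3.3, group alone, adjusted by the Benjamini-Hochberg method over 15492 genes. Standard errors were obtained from the log2 change and its F statistic. DESeq2 1.42.0 and limma 3.58.1 were alternatives. Replicates of a group differed by more than sampling noise (chi-square per degree of freedom 7.55 to 29.1). Intervals include the spread between libraries, and floors cover counting error only. Both rest on counts of reads, since reads carry no molecular identifiers. The script was tested on simulated data.

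The members, the gene lists and the motifs were chosen with earlier results of these data known. All 10 members are named, with every tested gene of the other transferase list and the called genes of the other lists. Pathway genes beyond these, the count ranges and HNF4A were named after their values were seen. One regulator is not reported here by name.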

Additional observations from a re-analysis of the deposited data

How the results depend on the processing

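GSTA2 stayed lower and called in every alternative fit of the gene itself, with a log2 change from -1.09 to -0.88. The alpha-class genes other than GSTA4 summed changed by -0.43. Most counts of that sum came from GSTA1, so it does not test GSTA2 itself. GSTA1 kept its direction in all, was called with the other scalings, filters and tools, and was not called against a 1.2-fold change (-0.31, adjusted p = 0.836), by construction a harder test. Leaving out each library gave -0.40 to -0.25 for GSTA1, and 1 to 2 members called lower; the 1.2-fold test called 1. GSTK1 went to 0.0026 with total counts. In fits leaving out a library GSTK1 ran from -0.042 to 0.027, MGST1 from -0.066 to 0.0056 and MGST2 from -0.095 to 0.0088, all uncalled. GSTM4 (-0.20 to -0.07), GSTO1 (-0.16 to -0.05), MGST3 (-0.145 to -0.029), GSTZ1 (0.10 to 0.21) and GSTA4 (0.03 to 0.06) kept their direction and were also uncalled.

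Called other transferase genes (1) became 2 with total counts, 3 without a filter, 2 with the filter of over 1 CPM, 0 against 1.2-fold and 0 to 2 without a library. Supply genes (2) became 1 without a filter, 1 with the replicate block, 0 against 1.2-fold and 1 to 2 without a library. Export and mercapturate genes (4) became 3 with RLE or upper-quartile scaling, limma-voom or the replicate block, 1 against 1.2-fold and 2 to 3 without a library. Regulators (3) became 4 without a filter, 1 against 1.2-fold and 2 to 3 without a library. Fits without a library have fewer samples; other causes were not tested. The ratio of GSTA2 to GSTA1 and its leave-one-out values were chosen after seeing the data.

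No pairing by replicate number was detected: deviations of same-numbered libraries correlated at -0.0577, -0.0268 and -0.00258. Those of differently numbered libraries ran from -0.198 to 0.214. So few values cannot exclude pairing. With the replicate block GSTA1 (adjusted p = 0.0449) and GSTA2 (0.000652) stayed called, and GCLC (0.0646), ACY1 (0.0907) and APOA1 (0.0804) did not. APOA1 was also not called with total counts (0.0543) or the filter of over 1 CPM (0.0507). Depth limits what low transcripts such as GSTA2, ALOX5AP and GSTA7P can show, and genes under the filter could not be compared.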
